A study of Mus musculus with 4 samples.

Results

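The genes that encode the core and linker histones were followed through RNA sequencing of tumor-associated macrophages (TAMs). Members were the protein-coding genes of GENCODE release M21 whose symbols begin with Hist1h, Hist2h, Hist3h or Hist4h, which were 67 of the 54532 genes in the count table. They comprised 6 genes for the linker histone H1, 18 for H2A, 18 for H2B, 12 for H3 and 13 for H4. On GRCm38 (mm10), 54 of them lay in the Hist1 cluster on chromosome 13 (21715763 to 23934851), 10 in the Hist2 cluster on chromosome 3 (96219865 to 96270132), 2 in the Hist3 cluster on chromosome 11 (58948920 to 58956830), and Hist4h4 lay alone on chromosome 6 (136801553 to 136804415). Another 3 genes with such symbols are annotated as pseudogenes and were left out.

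RNA was sequenced from 2 libraries labelled SykMC-WT (M7 and M8) and 2 labelled SykMC-KO (M9 and M10). SykMC-KO mice, on a C57BL/6 background, were bred from mice with floxed Syk and mice with LysM-Cre, a recombinase driven by the lysozyme M promoter of myeloid cells, so that other cells of the tumor keep Syk. Which of these alleles the SykMC-WT mice carry was not given in the sources used here. Mice of both genotypes were 4 to 6 weeks old when they received 4000000 NB9464 cells, a murine neuroblastoma line, without drug treatment, and TAMs were collected on day 40 with magnetic beads against CD11b and F4/80 before polyA-selected libraries were made. The labels name TAMs as the isolated cells but bone marrow-derived macrophages in the line on RNA extraction, and the series title speaks of an adoptive transfer. They do not say whether the 2 libraries of a genotype came from different mice, so the p-values measure the spread between these libraries.

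The deleted gene did not follow its label. Syk had 765 and 569 counts in M7 and M8 and 4033 and 2944 counts in M9 and M10, a log2 fold change of 2.80 (SE 0.194, adjusted p = 0.000674, edgeR quasi-likelihood test) in the direction opposite to the label, so groups are called the libraries labelled SykMC-WT and SykMC-KO throughout. Scaled to the macrophage markers, Syk differed by -0.0064 on the log2 scale (adjusted p = 0.991). Exchanged labels and unequal macrophage content cannot be told apart here, and exchanged labels would reverse every direction by genotype that is given. Total counts were between 20755886 and 23518045, and 3 counts, taken as the smallest detectable signal, were 0.109 to 0.163 CPM (counts per 1000000 of the library total after TMM, the trimmed mean of M-values normalization). The markers of the labelled cell type were present in every library but far from equal: the summed level of 10 macrophage markers was 803 to 1135 CPM in the libraries labelled SykMC-WT and 5702 to 9531 CPM in those labelled SykMC-KO, and all 10 were higher in the latter. The 6 pan-leukocyte genes summed to 259 to 349 CPM and 3025 to 4222 CPM, and 8 fibroblast markers to 15479 to 17080 CPM and 4599 to 5653 CPM. Mitochondrial genes took 2.20% and 2.34% of the counts in M7 and M8, 6.00% in M9 and 15.9% in M10.

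Most histone protein is made from replication-dependent genes, which are switched on as cells copy their DNA and supply the H2A, H2B, H3 and H4 that wrap new DNA into nucleosomes, and the H1 that binds the linker DNA between them. Their mRNAs are unusual: most have no introns, and they end in a short hairpin, the histone stem-loop, bound by Slbp, instead of a polyA tail. PolyA-selected libraries therefore sample these genes mainly through transcripts that carry a polyA tail, which histone genes are known to make in smaller amounts, for example in differentiated cells. The genes occur in many nearly identical copies, so that a short read often matches several of them.

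The stem-loop was searched for in the annotated transcripts of every member and was found in 46 of the 67. It is 16 bases long, with 6 paired bases on either side of a loop of 4 bases, and its commonest form was that of Hist1h1c, which occurred in 26 members. Outside the list, 18 of 21076 coding genes (0.0854%) had a match, among them H2afx. The following sequences show the hairpin in capitals with 5 bases on each side, for members of each class whose values are given further on. Hist1h2bc, the H2B gene with most counts, had none in its annotated model.

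Hist1h1c: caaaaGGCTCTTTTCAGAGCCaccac
Hist3h2a: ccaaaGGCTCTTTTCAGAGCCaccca
Hist2h2aa1: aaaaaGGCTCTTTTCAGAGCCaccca
Hist2h2aa2: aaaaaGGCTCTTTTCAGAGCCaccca
Hist1h2bk: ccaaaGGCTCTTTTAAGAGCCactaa
Hist1h3e: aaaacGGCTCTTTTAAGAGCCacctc
Hist1h4i: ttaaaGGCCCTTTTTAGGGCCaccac
Hist4h4: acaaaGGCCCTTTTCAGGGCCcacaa

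The flanks of Hist2h2aa1 and Hist2h2aa2 are the same as well as their hairpins. In the H4 genes Hist1h4i and Hist4h4, the paired bases contain ggccct in place of the ggctct of the other sequences shown.

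Histone genes took 0.0209% to 0.0448% of all counts. Summed over the 67 genes, their level was 191 CPM in M7, 177 CPM in M8, 512 CPM in M9 and 420 CPM in M10, a log2 ratio of 1.34 between the means of 466 ± 65.1 CPM and 184 ± 9.97 CPM (SD, n = 2 each). Both libraries labelled SykMC-KO were above both labelled SykMC-WT with this normalization, and the ratio turned to -1.48 once the macrophage markers set the scale. In bulk RNA, more cells of a kind and more RNA per cell cannot be told apart.

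Few genes carried this level. Hist1h1c alone had 41.4% to 47.9% of the histone counts of a library, and with Hist1h2bc, Hist3h2a and Hist2h2aa2 the share was 84.2% and 74.1% in M7 and M8, and 77.8% and 66.9% in M9 and M10. By contrast 41 members had under 100 counts over all libraries together. No count was recorded for Hist1h1t, Hist1h2aa and Hist1h2ba, whose products are known from the testis, nor for Hist2h3c1, which has no 31-base word of its own, and such zeros allow levels up to the floor of 3 counts per library.

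Of the 67 genes, 51 passed edgeR's expression filter and were tested among 16451 genes. With an adjusted p under 0.05 over all of these, 18 histone genes were higher in the libraries labelled SykMC-KO, where 22.7% of all genes tested were higher. No histone gene was lower by edgeR, where 16.7% of all genes were. With an unadjusted p under 0.05 the counts were 30 higher (27.8% of all genes) and 0 lower (22.1%), and the DESeq2 Wald test called 17 higher (19.0%) and 0 lower (15.3%). The log2 fold changes of the 51 were all above 0, from 0.02 upwards with a median of 1.58, against a median of 0.02 over all genes, but only 7 of the 51 stayed above 0 once the macrophage markers set the scale and 2 when the pan-leukocyte genes did. The 2 genes that had no count in either library labelled SykMC-WT have lower bounds of 5.19 and 4.77. Setting them at these bounds leaves the median at 1.58 and could not move it, as both lie above it. For 43 of the 51, both libraries labelled SykMC-KO were above both labelled SykMC-WT, which held for 38.0% of all genes tested, and for none were both below (37.2% of all genes).

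**Figure D1:**
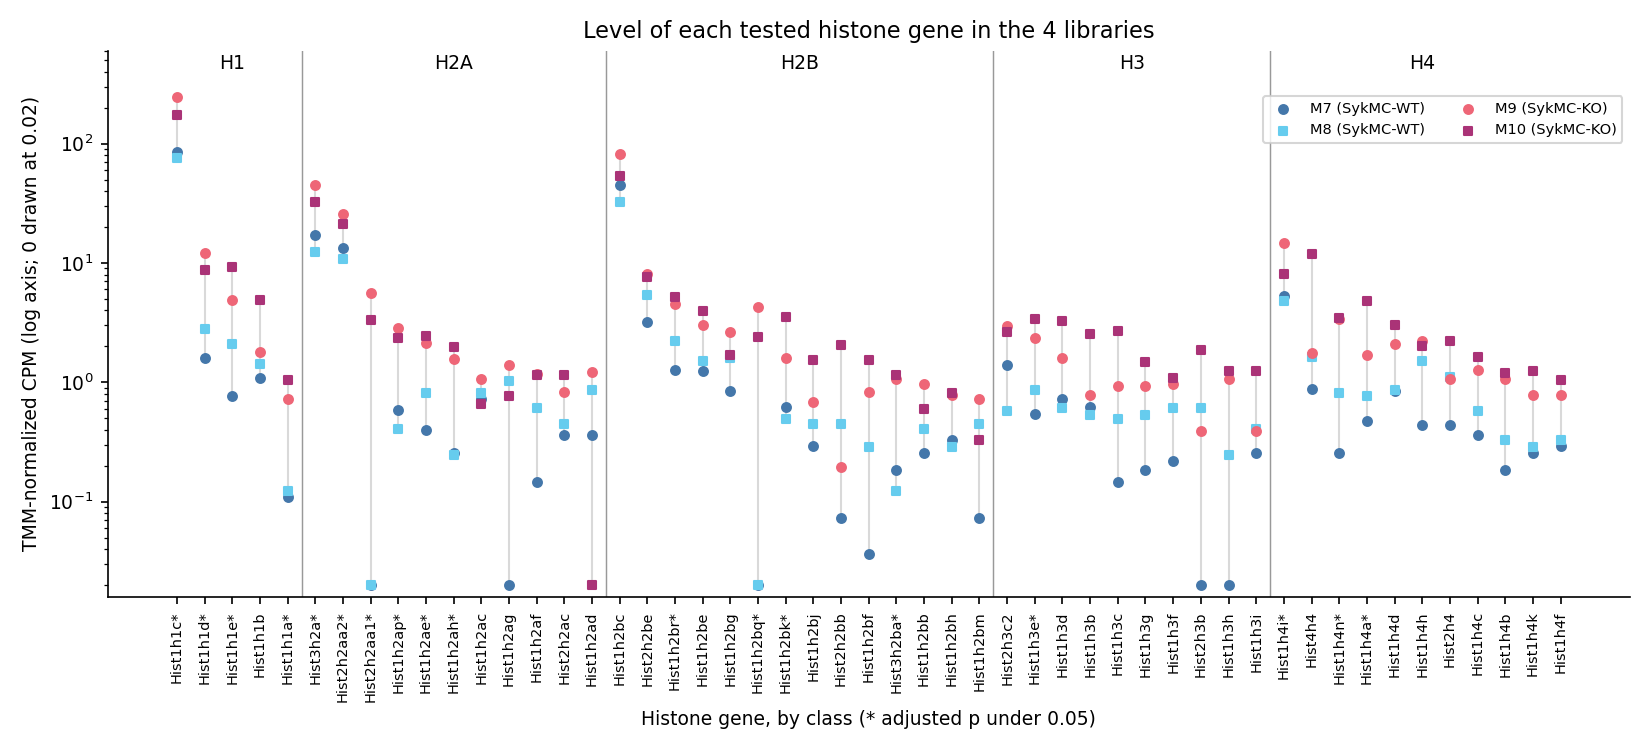
TMM-normalized CPM of the 51 histone genes tested, on a log axis with 0 drawn at 0.02, in each of the 4 libraries, by class and in order of mean level; vertical lines span the 4 values and a star marks an adjusted p under 0.05. Hist1h1c and Hist1h2bc stand above the other members, the red and purple points of M9 and M10 lie above the blue points of M7 and M8 for 43 genes with TMM normalization, although only 7 of the 51 log2 fold changes stay above 0 under the macrophage marker scaling, and M10 stands alone for Hist4h4.

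The number called depended on single libraries. The number higher was 5 without M7 (12.1% of all genes tested were then higher and 7.09% lower), 5 without M8 (8.58% and 4.69%), 37 without M9 (24.8% and 25.8%) and 26 without M10 (28.9% and 27.4%). Without M9, Hist1h2ad, which had no count in M10, was called lower, and 0 histone genes were lower without M7, M8 or M10. Without M7 the 5 genes were Hist1h1c, Hist1h1d, Hist1h2bq, Hist2h2aa1 and Hist3h2a, and without M8 they were Hist1h1c, Hist1h1d, Hist1h1e, Hist1h2bq and Hist2h2aa1. At the threshold itself, Hist1h2br (adjusted p = 0.0428) and Hist1h2ae (adjusted p = 0.0497) were just inside, and Hist1h2bc (adjusted p = 0.0507) and Hist1h4b (adjusted p = 0.0544) just outside in the edgeR test, and 12 histone genes had adjusted p-values between 0.05 and 0.1.

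How the libraries are scaled set the sign. With TMM the median of all genes was 0.02 on the log2 scale and with DESeq2 size factors -0.03, but with library size only it was -0.52, with the macrophage markers -2.78 and with the pan-leukocyte genes -3.60. The median of the 51 histone genes under these scalings was 1.58, 1.52, 1.03, -1.16 and -1.98. Relative to the median of all genes the histone median lay 1.55 to 1.62 higher under each of the 5 scalings. Of the 51 genes, 51, 51, 51, 50 and 50 lay above the median of all genes. A scaling shifts the log2 fold changes of all genes by nearly the same amount. This distance could therefore hardly change, and its likeness under the 5 scalings is no separate evidence. DESeq2 size factors gave 16 histone genes higher (20.4% of all genes) and 0 lower (17.4%), and library size only gave 10 higher (10.2%) and 0 lower (32.9%). With the macrophage markers 2 histone genes were called higher (0.766% of all genes) and 9 lower (87.0%), and with the pan-leukocyte genes 2 were higher (0.334%) and 22 lower (92.8%). The 2 called higher were Hist2h2aa1 and Hist1h2bq under both marker scalings, each 1 gene of a nearly identical pair between which reads can be divided. Under other filters on low counts the split was as follows: with at least 10 counts in every library 17 of 27 tested histone genes were higher (24.5% of all genes) and 0 lower (20.2%), and with all genes of at least 1 count 25 of 63 were higher (15.7%) and 1, Hist1h4m, lower (12.7%). With mitochondrial and rRNA-like genes left out 16 of 52 were higher (21.1%) and 0 lower (17.3%).

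**Figure D2:**
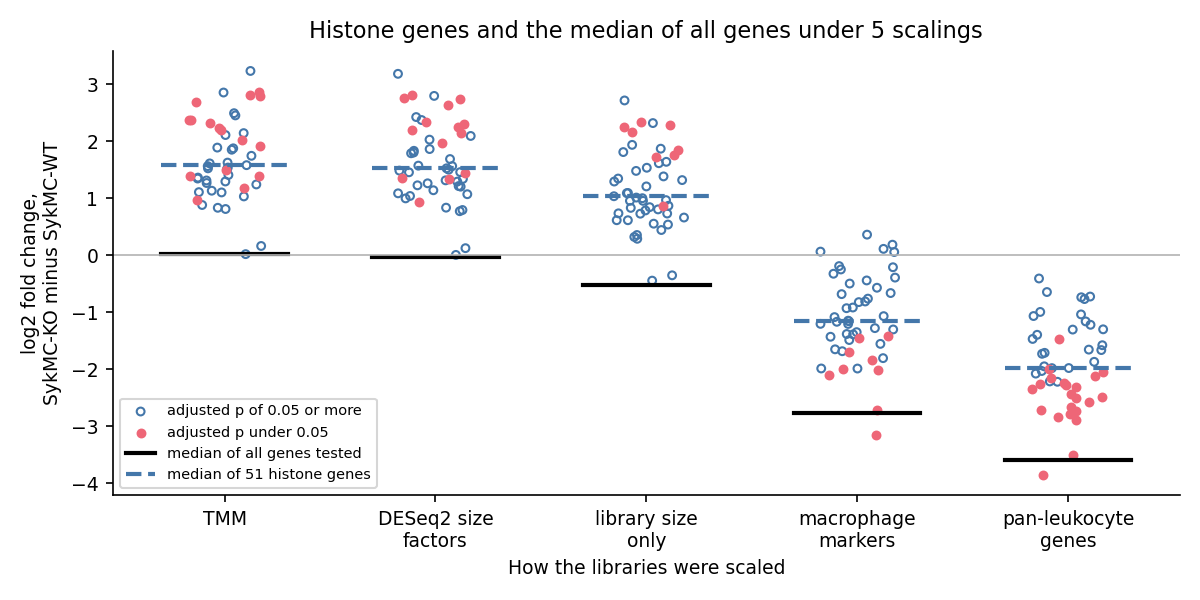
Log2 fold change (SykMC-KO minus SykMC-WT as labelled) of 49 histone genes under 5 ways of scaling the libraries; filled points have an adjusted p under 0.05, the dashed line is the median of the 51 histone genes and the black line that of all genes tested. Hist2h2aa1 and Hist1h2bq, which had no count in M7 and M8, are not drawn. The points are above 0 with TMM and mostly below 0 under both marker scalings. The dashed line stays above the black line under all 5, which a scaling could hardly alter because it shifts all genes nearly alike.

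The linker histones of the H1 class bind the nucleosome where DNA enters and leaves it. Of the 6 H1 genes, 5 were tested and 4 were higher (22.7% of all genes), although their summed level turned from a log2 ratio of 1.44 to -1.40 under the macrophage marker scaling. Hist1h1c (ENSMUSG00000036181, chromosome 13, 23738808 to 23740367), the gene for H1.2, was at 85.1 CPM in M7, 75.6 CPM in M8, 245 CPM in M9 and 174 CPM in M10. Both libraries labelled SykMC-KO were above both others, a log2 fold change of 1.38 (SE 0.213, adjusted p = 0.00468, edgeR). Per kilobase of exon it had the highest level of all 67 genes, a mean of 92.9 CPM per kb.

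The other H1 genes were at most 3.10 CPM per kb. Hist1h1d (chromosome 13, 23553262 to 23560686) was at 1.60, 2.81, 12.1 and 8.66 CPM in M7, M8, M9 and M10, a log2 fold change of 2.23 (SE 0.410, adjusted p = 0.00819), and its groups did not overlap. Hist1h1e (chromosome 13, 23620629 to 23622558) was at 0.766, 2.08, 4.90 and 9.21 CPM, a log2 fold change of 2.31 (SE 0.603, adjusted p = 0.0255), with M10 the highest. The annotated span of Hist1h1e overlaps that of Hist1h2be on the same strand, so reads from the shared part can be counted for either.

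Hist1h1a (chromosome 13, 23763666 to 23764406) had 3 counts in each of M7 and M8, 15 counts in M9 and 19 counts in M10. The ratio of its normalized counts was 7.57, with a 95% counting interval of 3.14 to 22.05 (exact binomial, counting error only), and the adjusted p was 0.0301. It passed with DESeq2 size factors but not in the DESeq2 Wald test. Hist1h1b had 30, 35, 37 and 90 counts, a difference that rested on M10 and did not pass the test (adjusted p = 0.117). Without Hist1h1c, the summed level of the other H1 genes was 3.57, 6.43, 19.5 and 23.8 CPM, a log2 ratio of 2.12 against 1.44 for the whole class.

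H2A pairs with H2B in the dimers that flank the H3 and H4 core of the nucleosome. Of 18 H2A genes, 11 were tested and 6 were higher (22.7% of all genes), and the summed level was 33.6, 28.8, 91.3 and 71.7 CPM in M7, M8, M9 and M10, a log2 ratio of 1.39 that turned to -1.44 under the macrophage marker scaling. The H2A gene with most counts was Hist3h2a (ENSMUSG00000078851, chromosome 11, 58954685 to 58956830), at 17.2, 12.3, 45.2 and 32.2 CPM. Both libraries labelled SykMC-KO were above both others, a log2 fold change of 1.39 (SE 0.254, adjusted p = 0.00806). Its span overlaps that of Trim17 on the same strand, which had 5 to 20 counts per library.

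In the Hist1 cluster, Hist1h2ap, Hist1h2ah and Hist1h2ae passed the test. Hist1h2ap was at 0.583, 0.407, 2.86 and 2.34 CPM (log2 fold change 2.38, SE 0.572, adjusted p = 0.0197). Hist1h2ah was at 0.255, 0.244, 1.55 and 1.96 CPM (log2 fold change 2.79, SE 0.648, adjusted p = 0.0177). Hist1h2ae was at 0.401, 0.814, 2.14 and 2.45 CPM (log2 fold change 1.91, SE 0.618, adjusted p = 0.0497), and passed neither with DESeq2 size factors nor with the DESeq2 Wald test. In all 3 the groups did not overlap. Some other copies scattered: Hist1h2ad had 10, 21, 25 and 0 counts, Hist1h2ag had 0, 25, 29 and 14, and Hist1h2ai had 3, 0, 22 and 0, with no order by genotype. Hist1h2af, with 4, 15, 24 and 21 counts, had both libraries labelled SykMC-KO above both others but did not pass (adjusted p = 0.166, edgeR). The same order held for Hist1h2ak, with 1, 4, 5 and 37 counts, which was not tested. Of the H2A genes of the Hist1 cluster, 12 form a group linked by shared 31-base words (all stretches of that length in the transcripts). Each shares with another at least 50% of the words of the shorter model. Hist1h2ap and Hist1h2ah had only 6.64% and 8.8% of words found in no other gene, so their single values depend on how shared reads were divided. Of the 67 histone genes, 40 had under 50% of such words and 18 under 15%. Added together the 12 genes had 75, 131, 285 and 235 counts. In a TMM fit with such groups summed the log2 fold change was 1.73 (SE 0.376, adjusted p = 0.0142).

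The copies Hist2h2aa1 and Hist2h2aa2 lie a few kilobases apart on chromosome 3 in opposite orientation (96245497 to 96246082 and 96239749 to 96240276). Hist2h2aa1 holds 100% of the 31-base words of Hist2h2aa2, the shorter model. Of the words of Hist2h2aa1, 10.3% occur in no other gene. Hist2h2aa1 had 0 counts in both M7 and M8, 115 counts in M9 and 61 counts in M10, at least 36.5-fold higher in the libraries labelled SykMC-KO than the largest floor of 3 counts in those labelled SykMC-WT (adjusted p = 0.00257). The bound was 4.17-fold under the macrophage marker scaling and 2.52-fold under the pan-leukocyte scaling. Hist2h2aa2, its twin, had 365, 263, 532 and 390 counts, a log2 fold change of 0.97 (SE 0.224, adjusted p = 0.0173), and both libraries labelled SykMC-KO were above both others. How reads from the shared sequence were divided between the copies is set by the quantifier and cannot be read from these counts. Added together the twins had 365, 263, 647 and 451 counts, or 13.3, 10.7, 31.4 and 24.6 CPM. With TMM normalization the log2 fold change of the sum was 1.22 (SE 0.226, adjusted p = 0.00844, edgeR), beside 1.39 for Hist3h2a. Under the macrophage marker scaling Hist2h2aa2, which held most of these counts, was at -1.83 and Hist3h2a at -1.42.

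The span of Hist2h2aa1 also overlaps that of Gm20634 (96245554 to 96248509, same strand), annotated as a processed transcript, which shares sequence with it and had 178, 134, 257 and 148 counts. With Gm20634 added, the locus had 543, 397, 904 and 599 counts, a log2 ratio of 1.09.

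**Figure D3:**
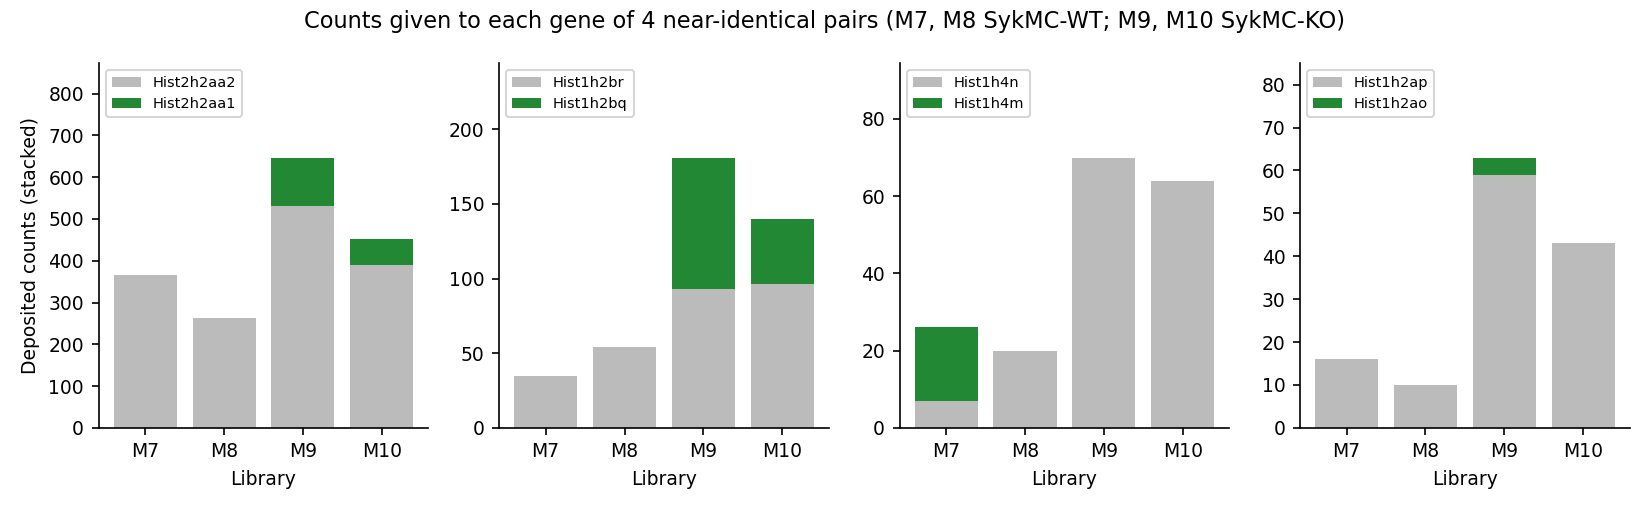
Deposited counts of 4 pairs of nearly identical histone genes, stacked within each library. The green part, the counts given to Hist2h2aa1 or Hist1h2bq, is absent in M7 and M8 and present in M9 and M10, whereas for Hist1h4m it is present in M7 alone with 19 counts and for Hist1h2ao in M9 alone with 4 counts.

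The same split was seen in H2B. Hist1h2bq and Hist1h2br (chromosome 13, 21806612 to 21810197 and 21833743 to 21837530) share 98.3% of the words of the shorter model. Words found in no other gene were 1.74% for Hist1h2bq and 10.5% for Hist1h2br, so their single values depend on how shared reads were divided. Hist1h2bq had 0, 0, 88 and 44 counts in M7, M8, M9 and M10, at least 27.3-fold higher in the libraries labelled SykMC-KO (adjusted p = 0.00365). The bound was 3.10-fold under the macrophage marker scaling and 1.88-fold under the pan-leukocyte scaling. Hist1h2br had 35, 54, 93 and 96 counts, a log2 fold change of 1.49 (SE 0.458, adjusted p = 0.0428) that turned to -1.35 under the macrophage marker scaling. The sum was 35, 54, 181 and 140 counts, a log2 fold change of 2.24 (SE 0.412, adjusted p = 0.00831) in a fit with only the nearly identical copies summed, a grouping chosen after the data were seen.

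Of 18 H2B genes, 14 were tested and 4 were higher, a share close to the 22.7% of all genes: Hist1h2bq, Hist1h2br, Hist1h2bk and Hist3h2ba. The class had the smallest log2 ratio of the 5, 0.99, from summed levels of 53.7, 46.8, 112 and 87.3 CPM, and it turned to -1.84 under the macrophage marker scaling; differences between classes were not tested. Most of its counts came from Hist1h2bc (ENSMUSG00000018102, chromosome 13, 23684199 to 23692908), at 45.0, 32.2, 82.0 and 53.5 CPM. M9 was far above the rest and M10 only a little above M7, and the log2 fold change of 0.81 missed the threshold (SE 0.263, adjusted p = 0.0507, edgeR), which it passed in the DESeq2 Wald test. Without Hist1h2bc the class sum was 8.68, 14.5, 30.1 and 33.8 CPM, a log2 ratio of 1.46.

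Hist2h2be (chromosome 3, 96221119 to 96223738), the second H2B gene by counts, was at 3.21, 5.37, 8.16 and 7.63 CPM, and its log2 fold change of 0.88 did not pass (SE 0.367, adjusted p = 0.101). Hist1h2bk was at 0.620, 0.488, 1.60 and 3.54 CPM, with M10 the highest (log2 fold change 2.20, SE 0.645, adjusted p = 0.0368). Hist3h2ba (chromosome 11, 58948920 to 58949533), a neighbour of Hist3h2a, had 5, 3, 22 and 21 counts, a log2 fold change of 2.81 (SE 0.738, adjusted p = 0.0260) that passed with DESeq2 size factors but not in the DESeq2 Wald test. Both genes of the Hist3 cluster were thus called higher with TMM normalization, though Hist3h2a was at -1.42 and Hist3h2ba at 0.11 under the macrophage marker scaling.

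H3 and H4 form the tetramer at the centre of the nucleosome, and both classes were low in these libraries. The 12 H3 genes summed to 4.19, 5.57, 12.8 and 22.01 CPM in M7, M8, M9 and M10, a log2 ratio of 1.83 that turned to -0.92 under the macrophage marker scaling. Of 10 tested, 1 was higher, a share below the 22.7% of all genes. Hist1h3e (ENSMUSG00000069273, chromosome 13, 23561534 to 23562369) was at 0.547, 0.855, 2.33 and 3.38 CPM, a log2 fold change of 2.02 (SE 0.564, adjusted p = 0.0315). Hist2h3c2 had 38, 14, 61 and 48 counts and did not pass (adjusted p = 0.0912). Hist1h3h, with 0, 6, 22 and 23 counts, had the largest fitted log2 fold change among members with counts in a library labelled SykMC-WT, 3.23, and did not pass either (SE 1.19, adjusted p = 0.0727). It fell to 2.22 without M7, it passed without M9 (3.27) or without M10 (3.14), and without M8 the remaining library labelled SykMC-WT had no count. Words found in no other gene were 15.6% for Hist1h3e and 5.77% for Hist1h3h, so their single values depend on how shared reads were divided. The 9 H3 copies of the Hist1 cluster are linked by the same measure of at least 50%. Added together they had 77, 108, 194 and 322 counts, a log2 fold change of 1.91 (SE 0.414, adjusted p = 0.0141).

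The 13 H4 genes summed to 10.6, 13.5, 31.02 and 41.3 CPM, a log2 ratio of 1.58 that turned to -1.20 under the macrophage marker scaling. Of 11 tested, 3 were higher, a share near the 22.7% of all genes. Hist1h4i (ENSMUSG00000060639, chromosome 13, 22040636 to 22041362), the highest per kilobase, was at 5.29, 4.76, 14.6 and 8.12 CPM, a log2 fold change of 1.17 (SE 0.358, adjusted p = 0.0413), and the call was lost with DESeq2 size factors. Hist1h4a was at 0.474, 0.773, 1.70 and 4.80 CPM (log2 fold change 2.37, SE 0.698, adjusted p = 0.0371). Hist1h4n had 7, 20, 70 and 64 counts (log2 fold change 2.69, SE 0.671, adjusted p = 0.0224), while its near copy Hist1h4m, with 91.7% of words shared, had 19, 0, 0 and 0. Their sums, 26, 20, 70 and 64 counts, gave 1.96 (SE 0.479, adjusted p = 0.0207).

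Hist4h4, the lone gene on chromosome 6, was chosen for mention after its values were seen. It had 24 and 40 counts in M7 and M8, and 36 and 220 counts in M9 and M10. M10 alone was high, M9 was close to M8, and the log2 fold change of 2.45 did not pass in edgeR (SE 0.898, adjusted p = 0.0719) but did in the DESeq2 Wald test. Without M10 it was 0.50. M10 was also above M9 for 9 of 10 tested H3 genes and 9 of 11 tested H4 genes, but for 3 of 11 H2A genes. In the other genotype M8 was above M7 for 7 of 10 H3, 10 of 11 H4 and 6 of 11 H2A genes, and over all 51 genes M8 was above M7 for 36 and M10 above M9 for 32. Copies linked by shared words are not separate observations, and no share of all genes tested is given for these counts. M10 was the library with 15.9% mitochondrial counts, and the part of this in the result was not tested.

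**Figure D4:**
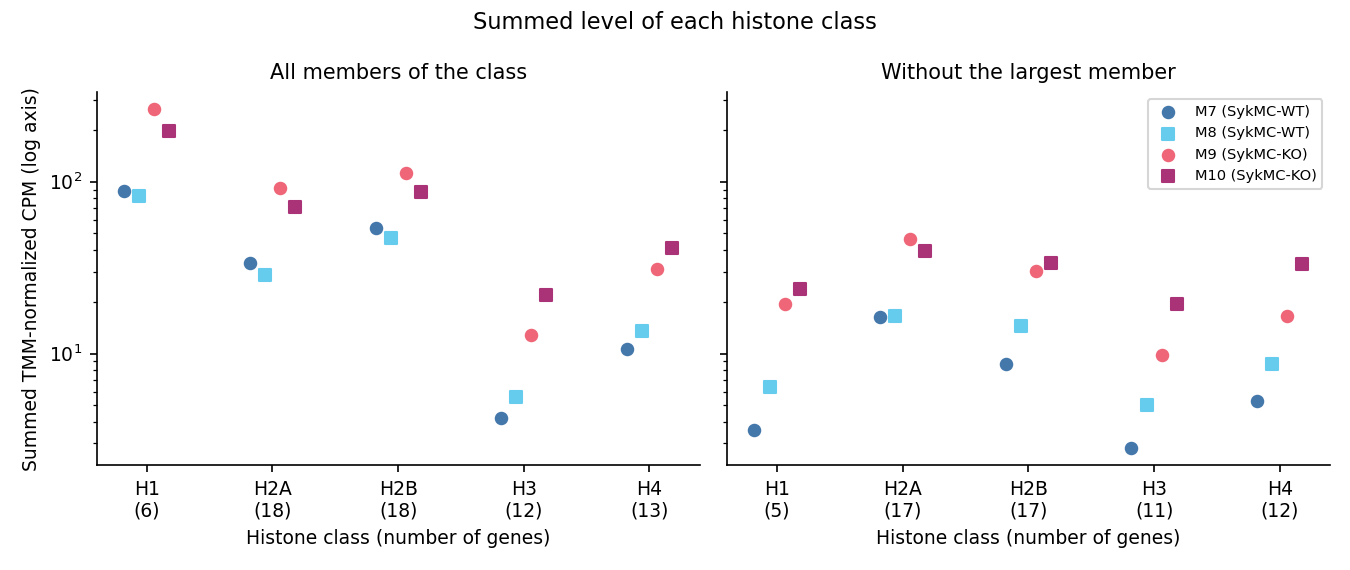
Summed TMM-normalized CPM of each histone class in each library on a log axis, for all members (left) and without the member with most counts (right: Hist1h1c, Hist3h2a, Hist1h2bc, Hist2h3c2 and Hist1h4i left out). With this normalization both libraries labelled SykMC-KO lie above both labelled SykMC-WT in each class, and all 5 ratios change sign under the macrophage marker scaling; M9 is above M10 for H1, H2A and H2B and below it for H3 and H4 on the left.

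When all members that share at least 50% of words were summed, 49 genes fell into 7 groups and 18 stood alone. Of the resulting 25 units 21 were tested, and 13 were higher with an adjusted p under 0.05 (22.8% of all units tested) and 0 lower (16.7%), and the log2 fold changes of the units ranged over 0.88 to 2.87 around a median of 1.58 under TMM normalization. The H2B group of 14 genes was the group nearest 0 among the 7, at 0.98 (SE 0.205, adjusted p = 0.0127). With only the nearly identical pairs summed, 16 of 49 units were higher (22.7% of all units tested) and 0 lower (16.7%). Summed units were fitted with TMM normalization only. Under the macrophage marker scaling the median of the 51 single genes was -1.16.

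Where a model ends relative to its stem-loop was compared with the level. In 23 members the annotated transcript runs at least 100 bases past the hairpin (108 to 4884 bases), in 23 it ends within 74 bases of it, and in 21 no hairpin was found in the model, 11 of which are annotated only from start to stop codon. The polyadenylation signal AATAAA was found after the hairpin in 14 of the 23 longer models and in 0 of the 23 shorter ones. Members with a longer model took 62.7% to 68.1% of histone counts in each library, members that end near the hairpin 10.02% to 12.6%, and members without a hairpin in the model 21.3% to 27.2%. The share of the longer models was mostly that of Hist1h1c, which alone had 41.4% to 47.9% of histone counts.

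At equal abundance longer transcripts give more reads, so the level was also divided by exon length. The median was then 1.24 CPM per kb for the longer models, 1.55 CPM per kb for those that end near the hairpin and 1.46 CPM per kb for those with none. Hist1h1c (840 bases past the hairpin), Hist3h2a (1643 bases), Hist1h4i (330 bases) and Hist1h2bc (no hairpin in a spliced model) were at 92.9, 12.5, 11.3 and 46.0 CPM per kb. Hist2h2aa2, whose model ends 35 bases after the hairpin, was at 33.7 CPM per kb. The median log2 fold change was 1.54 for the longer models, 1.55 for those that end near the hairpin and 1.87 for those with none, and 9 of 20, 5 of 18 and 4 of 13 tested members were higher with TMM normalization (background 22.7%).

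**Figure D5:**
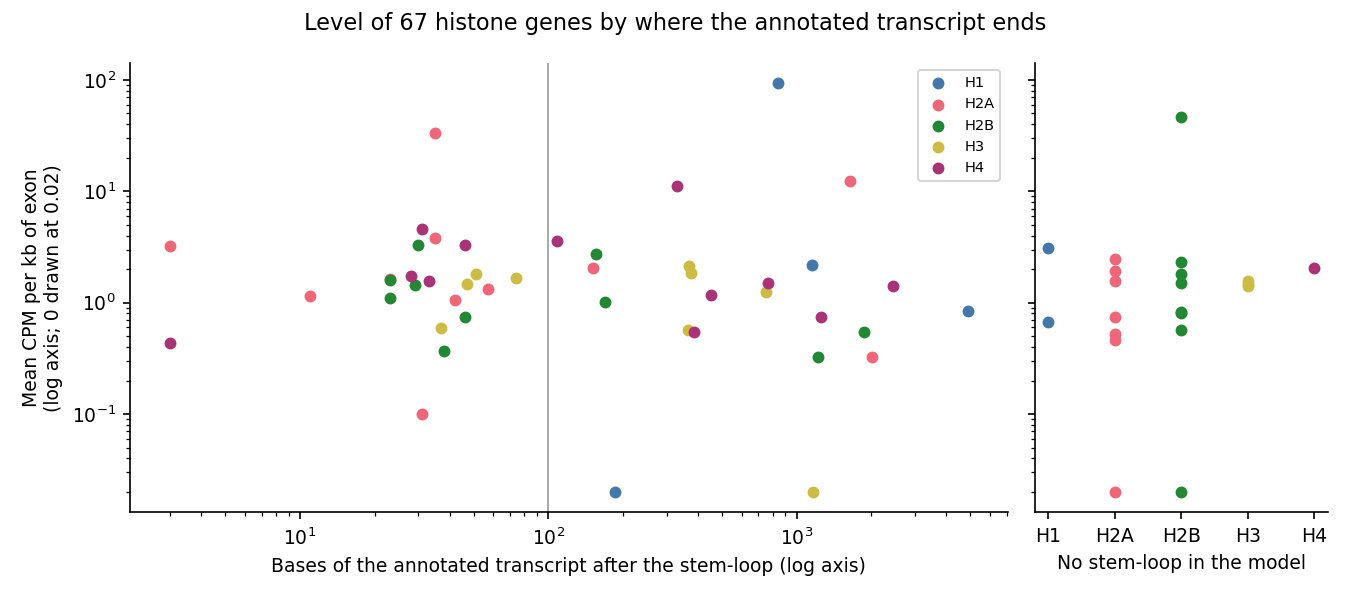
Mean CPM per kb of exon over the 4 libraries of all 67 histone genes, on a log axis with 0 drawn at 0.02, against the bases of the annotated transcript that follow the stem-loop (left) and for members with no stem-loop in the model (right), coloured by class. The vertical line marks 100 bases; genes on both sides of it lie at like levels, and Hist1h1c, Hist2h2aa2, Hist3h2a, Hist1h4i and Hist1h2bc stand above the rest, at 92.9, 33.7, 12.5, 11.3 and 46.0 CPM per kb.

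In the Hist1 and Hist2 clusters, 12 pairs of an H2A and an H2B gene point away from each other with 175 to 305 bases between their annotated starts. In 7 pairs both genes were tested, and in 2 of these both were higher with TMM normalization (Hist1h2ap with Hist1h2br, Hist1h2ah with Hist1h2bk). In 2 further pairs 1 gene was, Hist1h2ae and Hist1h2bq, the latter with an untested partner. Of all genes tested 22.7% were higher. Words found in no other gene were 6.64%, 10.5%, 8.8% and 24.7% for Hist1h2ap, Hist1h2br, Hist1h2ah and Hist1h2bk. Their separate calls therefore depend on how shared reads were divided. Leaving out the pair with no counts and 1 exception, the levels of partners differed 1.03- to 8.18-fold, as with 2.48 and 3.28 CPM per kb for Hist1h2ah and Hist1h2bk, 1.64 and 1.59 for Hist1h2ag and Hist1h2bj. The exception was Hist1h2ac with Hist1h2bc, at 0.329 and 46.0 CPM per kb, a 140-fold difference with starts 250 bases apart. Their exon lengths were 2482 and 1156 bases, so part of this fold comes from the division by length. Whether the 2 starts differ in output was not tested. Hist1h2ac had 20, 20, 22 and 12 counts in M7, M8, M9 and M10, with the groups overlapping. Part of the interval between Hist1h2ah and Hist1h2bk is printed as an example of a start region shared by members that were called together, as the 250 bases before the RefSeq start of Hist1h2bk (GRCm38.p6, plus strand, chr13:22035571-22035820):

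Hist1h2bk: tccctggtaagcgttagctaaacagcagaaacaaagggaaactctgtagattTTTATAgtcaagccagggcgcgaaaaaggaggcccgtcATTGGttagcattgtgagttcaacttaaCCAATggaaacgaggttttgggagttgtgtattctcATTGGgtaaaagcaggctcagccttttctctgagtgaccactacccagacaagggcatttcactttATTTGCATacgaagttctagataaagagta

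Capitals mark CCAAT (3 matches on either strand), TATAAA (1, on the minus strand) and ATTTGCAT (1), the octamer known from H2B promoters. RefSeq promoter windows of 300 bases, from 250 before to 50 after the start, were matched for 61 of the 67 members. CCAAT was present on either strand in 85.2% of them against 37.9% of all 27025 RefSeq windows, TATAAA in 57.4% against 14.2%, and ATTTGCAT in 21.3% against 1.75%. CCAAT was in all matched H1, H2A, H2B and H3 windows but in 25.0% of the 12 H4 windows, and ATTTGCAT occurred in 41.2% of the H2A and 37.5% of the H2B windows and in 0 of the other classes. Partners of a head-to-head pair can share a window, and a match is a description of letters, not of a bound site.

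Genes around the histones were read from lists of 57 genes in all, of which 34 passed the test (22.7% of all genes tested were higher and 16.7% lower). Replacement histones, most of which are made throughout the cell cycle from polyadenylated mRNAs, are 11 genes here, H2afx with its stem-loop among them, which summed to 2711 to 2916 CPM in the libraries labelled SykMC-WT and 3890 to 3969 CPM in those labelled SykMC-KO. Of these 11, 7 were higher and 0 lower with TMM normalization (22.7% and 16.7% of all genes), the median of their log2 fold changes was 0.94, and all 11 were lower under both marker scalings (87.0% and 92.8% of all genes). The largest changes were in H3f3a, which encodes the variant H3.3 and was at 315, 279, 954 and 661 CPM (log2 fold change 1.44, SE 0.240, adjusted p = 0.00603), and H2afx, whose product is phosphorylated at DNA breaks, at 45.3, 38.4, 100.1 and 101 CPM (log2 fold change 1.26, SE 0.160, adjusted p = 0.00256). H3f3b, which encodes the same H3.3 protein, was at 1648, 1576, 1653 and 1983 CPM with a log2 fold change of 0.17 (adjusted p = 0.580), and H1f0, the linker histone of resting cells, at 478, 434, 430 and 449 CPM (adjusted p = 0.829).

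Of 19 genes of S phase and division, 16 were higher and 0 lower with TMM normalization (background 22.7% and 16.7%), the median of their log2 fold changes was 0.88, and all 19 were lower under both marker scalings (87.0% and 92.8% of all genes). Birc5, of the chromosomal passenger complex, was at 44.3, 32.4, 84.2 and 112 CPM (log2 fold change 1.36, SE 0.227, adjusted p = 0.00607), and Mcm3, a subunit of the replicative helicase, at 72.9, 62.6, 172 and 162 CPM (log2 fold change 1.30, SE 0.163, adjusted p = 0.00243). The summed list was 938 to 1101 CPM in the libraries labelled SykMC-WT and 1914 to 1996 CPM in those labelled SykMC-KO, a log2 ratio of 0.94 beside 1.34 for the histone genes.

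Of 11 genes for histone mRNA processing, 5 were higher and 0 lower with TMM normalization (22.7% and 16.7% of all genes), the median of their log2 fold changes was 0.17, and all 11 were lower under both marker scalings (87.0% and 92.8% of all genes). They included Lsm10, a subunit of the U7 particle (9.95, 7.77, 17.2 and 14.2 CPM; log2 fold change 0.82, SE 0.254, adjusted p = 0.0432), and Cpsf2, of the cleavage complex (33.5, 28.1, 54.1 and 54.6 CPM; log2 fold change 0.82, SE 0.166, adjusted p = 0.0112). Slbp, which binds the stem-loop, was higher too, at 41.6, 35.7, 70.4 and 62.5 CPM (log2 fold change 0.78, SE 0.166, adjusted p = 0.0131), and Npat, the S phase activator of histone transcription, was at 24.5, 25.6, 21.4 and 17.9 CPM (adjusted p = 0.184); both were named after their values were seen, as were H3f3b, H1f0 and Cenpa.

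Histone chaperones carry histones to and from DNA. Of 16, 4 were higher and 2 lower with TMM normalization, shares near those of all genes (22.7% and 16.7%), the median of their log2 fold changes was 0.29, and all 16 were lower under both marker scalings (87.0% and 92.8% of all genes). Anp32e, which removes H2A.Z, was at 79.8, 57.8, 169 and 156 CPM (log2 fold change 1.24, SE 0.201, adjusted p = 0.00547), and Nasp, which holds soluble H3 and H4, at 61.8, 56.0, 109 and 121 CPM (log2 fold change 0.96, SE 0.156, adjusted p = 0.00547). Hjurp, the loader of the centromeric H3 variant Cenpa, was at 403, 441, 122 and 145 CPM (log2 fold change -1.66, SE 0.183, adjusted p = 0.00175), and Atrx, which deposits H3.3 with Daxx, at 223, 263, 134 and 115 CPM (log2 fold change -0.97, SE 0.180, adjusted p = 0.00864). Cenpa itself was higher, at 32.3, 28.9, 65.5 and 52.1 CPM (log2 fold change 0.94, SE 0.181, adjusted p = 0.00967), so that with TMM normalization the variant and its loader moved in opposite directions.

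Markers of other cells moved with the genotype labels as well. All 5 tested neutrophil markers, 4 of 5 T cell markers and 2 of 4 tested B and plasma cell markers were higher in the libraries labelled SykMC-KO, at summed levels of 24.6 to 39.3 CPM against 201 to 407 CPM, 4.35 to 5.61 against 10.2 to 13.2 CPM, and 1.71 to 1.896 against 10.03 to 11.1 CPM. All 6 erythroid markers, 5 of 8 fibroblast markers and 3 of 8 endothelial markers were lower, with erythroid sums of 2547 to 7080 CPM against 222 to 367 CPM and endothelial sums of 201 to 206 CPM against 141 to 151 CPM. Of the 8 neuroblastoma markers 4 were tested and 1, Gata3, was higher, and the defining markers Th and Dbh had 0 counts in all libraries. Nearly all of the list's level, 263, 303, 182 and 290 CPM in M7, M8, M9 and M10 (log2 ratio -0.26), came from Hand2, at 262, 301, 178 and 286 CPM (log2 fold change -0.28, adjusted p = 0.418). The part of these cells in the histone differences was not tested.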

How the data were processed

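RNA from 2 SykMC-WT and 2 SykMC-KO libraries, grouped by the labels, was measured by paired polyA-enriched sequencing. The authors deposited 1 table of raw read counts per Ensembl gene; the submitters' processing notes name mm10, STAR 2.6.1d, Salmon 1.4.0, SAMtools 1.9, Picard 2.26 and MultiQC 1.11, and how reads matching several genes were divided was not given in the sources used here. Total counts were 22448600, 20755886, 23518045 and 23351087 in M7, M8, M9 and M10. Names, coordinates, exon lengths and transcripts came from GENCODE M21, which matched 54495 of 54532 genes, and promoters from RefSeq on GRCm38.p6.

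From the deposited counts, genes were filtered with filterByExpr, normalized by TMM and tested with edgeR 4.0.16 (R 4.3.3; quasi-likelihood, Benjamini-Hochberg adjustment over 16451 genes, threshold 0.05, 2-sided). DESeq2 1.42.0 was an alternative. Levels are CPM of TMM-scaled totals, with ± as SD. A fold against libraries at 0 was set against a floor of 3 counts per library; floors and intervals cover counting error only. An exact permutation test of 2 against 2 libraries cannot go below p = 0.333 and was not used. Named genes were those past the threshold (at most 15 by size of change), the 2 highest per kilobase of each class, members near 0 in 1 genotype only, members sharing reads with these, the 2 largest changes per direction in each comparison list, and Syk; Hist4h4, Hist2h2be, Slbp, Npat, H3f3b, H1f0, Cenpa and Gata3 were chosen after their values were seen. The members and lists were chosen with earlier results of these data known. Alternatives were other scalings, filters, thresholds, tools, summed read-sharing members and each library left out. The edgeR script was tested on simulated data.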

Additional observations from a re-analysis of the deposited data

How the results depend on the processing

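Both the scaling of the libraries and the choice of libraries changed the results. Under the macrophage marker scaling, log2 fold changes were below 0 for the histone median (-1.16), the histone sum (-1.48), the summed H1 (-1.40), H2A (-1.44), H2B (-1.84), H3 (-0.92) and H4 (-1.20), and for Syk (-0.0064), Hist1h2bc (-2.02), Hist1h1c (-1.46), Hist1h1e (-0.50), Hist1h1d (-0.68), Hist1h1b (-1.28), Hist1h4a (-0.33), Hist1h4i (-1.71), Hist1h2bk (-0.44), Hist2h2aa2 (-1.83), Hist1h2ae (-0.93), Hist1h3e (-0.76), Hist1h2br (-1.35), Hist1h4n (-0.21), Hist3h2a (-1.42), Hist2h3c2 (-1.21), Hist1h2ap (-0.39), Hist4h4 (-0.19), Hist1h2ad (-3.15), Hist1h2ag (-1.99), Hist2h2be (-1.99), H3f3a (-1.40), H2afx (-1.52), Lsm10 (-1.98), Cpsf2 (-1.96), Anp32e (-1.53), Nasp (-1.81), Birc5 (-1.36) and Mcm3 (-1.49). Under the pan-leukocyte scaling they were -1.98 for the median, -2.30 for the sum, -2.21, -2.25, -2.65, -1.75 and -2.02 for the 5 classes in the same order, and -0.83 for Syk, -2.83 for Hist1h2bc, -2.27 for Hist1h1c, -0.65 for Hist1h1a, -1.30 for Hist1h1e, -1.47 for Hist1h1d, -0.73 for Hist3h2ba, -2.12 for Hist1h1b, -1.16 for Hist1h4a, -2.51 for Hist1h4i, -1.30 for Hist1h2bk, -2.66 for Hist2h2aa2, -1.73 for Hist1h2ae, -1.58 for Hist1h3e, -0.77 for Hist1h2ah, -2.15 for Hist1h2br, -0.9955 for Hist1h4n, -2.24 for Hist3h2a, -2.06 for Hist2h3c2, -1.22 for Hist1h2ap, -1.04 for Hist4h4, -3.86 for Hist1h2ad, -2.71 for Hist1h2ag, -2.79 for Hist2h2be, -0.41 for Hist1h3h, -2.21 for H3f3a, -2.35 for H2afx, -2.80 for Lsm10, -2.79 for Cpsf2, -2.37 for Anp32e, -2.64 for Nasp, -2.20 for Birc5 and -2.32 for Mcm3. Hist1h2ad was also at -0.45 with library size only, -0.0056 with the DESeq2 Wald test, -0.48 without M7 and -6.87 without M9, and at 1.01 without M10. The number of histone genes higher was 10 with library size only, 2 under each marker scaling, 30 at an adjusted p under 0.1, 30 at an unadjusted p under 0.05, and 5 to 37 with a library left out. The number lower was 9 with the macrophage markers (87.0% of all genes) and 22 with the pan-leukocyte genes (92.8%). It was 1, Hist1h4m, with all genes of at least 1 count (12.7%). The median was 1.03 with library size only and 1.45 to 2.19 with a library left out, the histone sum 0.81 and 1.19 to 1.48. Of the comparison genes 34 were called, against 14 with library size only, 57 under each marker scaling, 12 with a log2 fold change of at least 1, and 7 to 40 with a library left out. Without M7 or without M8, 13 of the named histone genes lost their call each time; the lone library of its group is then assumed to vary like the other group, and the cause of these changes was not tested. Members with under 100 counts over all libraries (41 of 67) are limited by depth. No paired analysis was possible because the labels give the groups different replicate numbers (7 and 8 against 9 and 10).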
